A study of Mus musculus with 2 samples.

Results

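The HOX genes of the mouse abdominal aorta were read from single-cell RNA sequencing (scRNA-seq) of 2 libraries, to describe which of them marked the smooth muscle, fibroblasts, endothelium and other cells of the vessel wall and how well the libraries matched. Members were chosen by symbol alone, as the features named Hox with a cluster letter from a to d and a number, which gave 39 of the 33696 features. They were 11 genes of the HOXA cluster, 10 of HOXB, 9 of HOXC and 9 of HOXD. The rule itself uses no measured value.

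HOX genes encode homeodomain transcription factors that give cells of the embryo their position along the body. Within a cluster, genes near the 3′ end, with low paralog numbers, are switched on early and far forward, and genes near the 5′ end, with high numbers, late and toward the tail, an order called collinearity. Genes that share a number across clusters are paralogs with similar homeodomains, and HOX proteins bind DNA together with cofactors of the PBX, MEIS and PKNOX families. Adult mesenchymal cells, and vessel walls among them, are known to keep part of this embryonic pattern.

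The Control library came from mice given normal saline and the AngII+HS library from mice given angiotensin II (AngII), the blood-pressure hormone used to induce aortic aneurysm, by implanted minipump together with high-salt drinking water holding NaCl and KCl. Both groups were male C57BL/6J mice, 5 months old, and tissue was taken on day 28. The series' design text gives 5 pooled mice per library, whereas the labels' extract protocol names 1 control and 2 AngII mice, so that a library is 1 sample whatever number was pooled. Abdominal aorta is the tissue the labels give.

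With 1 library per condition, no difference here has a test or a replicate spread. Levels are counts of unique molecular identifiers (UMIs, 1 tag per captured RNA molecule) summed over the cells of a type and divided by all UMIs of that type, on the usual scale of CPM. All 95% intervals are exact and cover counting error only. Tags were read at the 3′ end of transcripts and levels were not divided by gene length. Single genes are therefore compared between cell types rather than with each other. Shares by cluster and sums over paralog groups do set genes side by side, and how well each gene was captured enters them. Of 10269 Control and 19734 AngII+HS cells kept, median depth was 7274 and 3066 UMIs and the median mitochondrial share 3.57% and 1.06%. Cell types are clusters that carried at least 3 fixed marker genes, and each name should be read as X-like. Vascular smooth muscle cells (VSMCs; Myh11, Tagln, Acta2) numbered 5039 in Control and 631 in AngII+HS, fibroblasts (Dcn, Lum, Col1a1) 1957 and 4264, vascular endothelial cells (VECs; Cdh5, Pecam1) 838 and 1203, and lymphatic endothelial cells (LECs; Prox1, Mmrn1) 138 and 157. The barcode lists do not match the matrices: each has as many entries as the matrix of the other library has cells, and 67 barcodes stand in both. If the matrices rather than the lists were exchanged, every AngII+HS over Control direction below would turn round. Comparisons of cell types within a library would stand. As labelled, macrophages numbered 497 in Control and 4499 in AngII+HS, and neutrophils 99 and 4658. The study reported a smaller VSMC share and larger macrophage and neutrophil shares in AngII+HS, the direction that the labelled matrices show. Which of the 2 was exchanged was not tested.

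In the GRCm39 assembly with GENCODE vM39 annotation, the 11 HOXA genes span chr6:52132570-52237822 on the minus strand, the 10 HOXB genes chr11:96085106-96259082, the 9 HOXC genes chr15:102829538-102945278 and the 9 HOXD genes chr2:74498654-74595486, the last 3 clusters on the plus strand. Exons of 4 members overlap another member on the same strand: Hoxc5 and Hoxc10 share 166 bases, and Hoxd3 and Hoxd4 share 388 bases, or 5.67% and 13.1% of their exon bases. A further overlap with antisense genes touches 14 members, up to 51.5% of the exon bases of Hoxb3 with Hoxb3os. Shared exon bases can make the counts of the 4 same-strand genes less certain. Only exon bases of this annotation were compared, and the effect on the deposited counts was not tested.

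One promoter per cluster is shown, from a gene called between cell types or clusters below: Hoxa9 for VSMCs against fibroblasts and between the VEC clusters, Hoxb8 for VECs, Hoxc4 for fibroblasts and VSMCs, and Hoxd8 for LECs. Each run covers 250 bases before and 50 after the RefSeq start, 5′ to 3′ on the gene's strand, with CG dinucleotides in capitals. Coordinates are RefSeq's on GRCm38.p6, Hoxa9 at chr6:52227321-52227620 on the minus strand, Hoxb8 at chr11:96281655-96281954, Hoxc4 at chr15:103034145-103034444 and Hoxd8 at chr2:74704365-74704664, all 3 on the plus strand.
Hoxa9: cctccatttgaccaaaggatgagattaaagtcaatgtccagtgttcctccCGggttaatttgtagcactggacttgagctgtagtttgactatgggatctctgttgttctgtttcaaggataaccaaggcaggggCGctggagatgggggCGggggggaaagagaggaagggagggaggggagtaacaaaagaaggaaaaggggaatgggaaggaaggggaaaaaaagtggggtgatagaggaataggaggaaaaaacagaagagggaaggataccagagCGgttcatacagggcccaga
Hoxb8: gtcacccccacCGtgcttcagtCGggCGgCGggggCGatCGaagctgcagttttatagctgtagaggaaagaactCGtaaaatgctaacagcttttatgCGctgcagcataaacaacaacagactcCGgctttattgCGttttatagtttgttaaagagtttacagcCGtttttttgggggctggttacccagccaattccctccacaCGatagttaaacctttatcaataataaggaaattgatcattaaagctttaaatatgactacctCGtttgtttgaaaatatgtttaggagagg
Hoxc4: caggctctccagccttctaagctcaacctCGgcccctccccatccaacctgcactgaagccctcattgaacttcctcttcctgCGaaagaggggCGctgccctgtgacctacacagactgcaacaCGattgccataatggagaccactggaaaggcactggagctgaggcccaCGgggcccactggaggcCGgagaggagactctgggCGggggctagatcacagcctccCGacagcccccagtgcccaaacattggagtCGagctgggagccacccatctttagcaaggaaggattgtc
Hoxd8: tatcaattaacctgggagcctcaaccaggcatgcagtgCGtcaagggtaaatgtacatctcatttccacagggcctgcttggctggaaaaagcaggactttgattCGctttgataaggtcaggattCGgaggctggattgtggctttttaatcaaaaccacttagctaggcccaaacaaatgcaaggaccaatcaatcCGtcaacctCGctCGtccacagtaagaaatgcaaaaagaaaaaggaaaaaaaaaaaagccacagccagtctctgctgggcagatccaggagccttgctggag
These windows held 4, 13, 9 and 6 CG dinucleotides in the order shown. Over the 24 RefSeq promoters that matched 22 of the 39 members, the median was 14.5 CG, against 7 over all 32851 promoters of the table. Searched on both strands, TTTATG, the letters bound by caudal-type factors, stood in 5 of the 24 (20.8%, against 11.9% of all promoters), among them Hoxb8 with one match on each strand. The PBX-HOX letters TGATTNAT stood in 2 of 24 (8.33%, against 3.22%) and the MEIS letters TGACAG in 2 of 24 (8.33%, against 19.2%). A match of letters is a description of the window and not a binding site.

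Structural cells of the wall carried HOX transcripts and blood cells had almost none. All HOX genes summed reached 455 CPM in Control VSMCs (95% interval 449 to 461) and 374 CPM in AngII+HS VSMCs (359 to 390). Fibroblasts had 358 CPM (346 to 371) and 360 CPM (353 to 367). VECs had 636 CPM (612 to 660) in Control and 476 CPM (459 to 493) in AngII+HS. LECs had 396 CPM (361 to 432) and 329 CPM (292 to 370). Neural cells (Sox10, Cdh19) carried 142 CPM (110 to 181) and 159 CPM (138 to 183). T and B cells, which served as the measure of free RNA, had 23.5 CPM from 22 UMIs and 30.5 CPM from 150 UMIs, macrophages 23.9 and 19.1 CPM, and neutrophils 22.1 CPM from 6 UMIs and 28.8 CPM. VSMCs, fibroblasts, VECs and LECs were each over 10-fold above the pooled T and B cells of their library.

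Counted by cell, 96.1% of Control and 88.7% of AngII+HS VSMCs held at least 1 HOX UMI, against 9.57% and 6.35% of T and B cells. VSMCs were the deepest of these cells, at a median of 9983 and 9056 UMIs against 3779 and 2131 in T and B cells. Thinned to 1000 UMIs per cell, the share was 35.9% and 29.8% in VSMCs, 29.97% and 29.6% in fibroblasts, 44.8% and 35.0% in VECs, 40.4% and 26.0% in LECs, and 0.881% and 2.68% in T and B cells. At equal depth VECs thus had the highest share of cells with a HOX UMI in Control, followed by LECs.

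**Figure D1:**
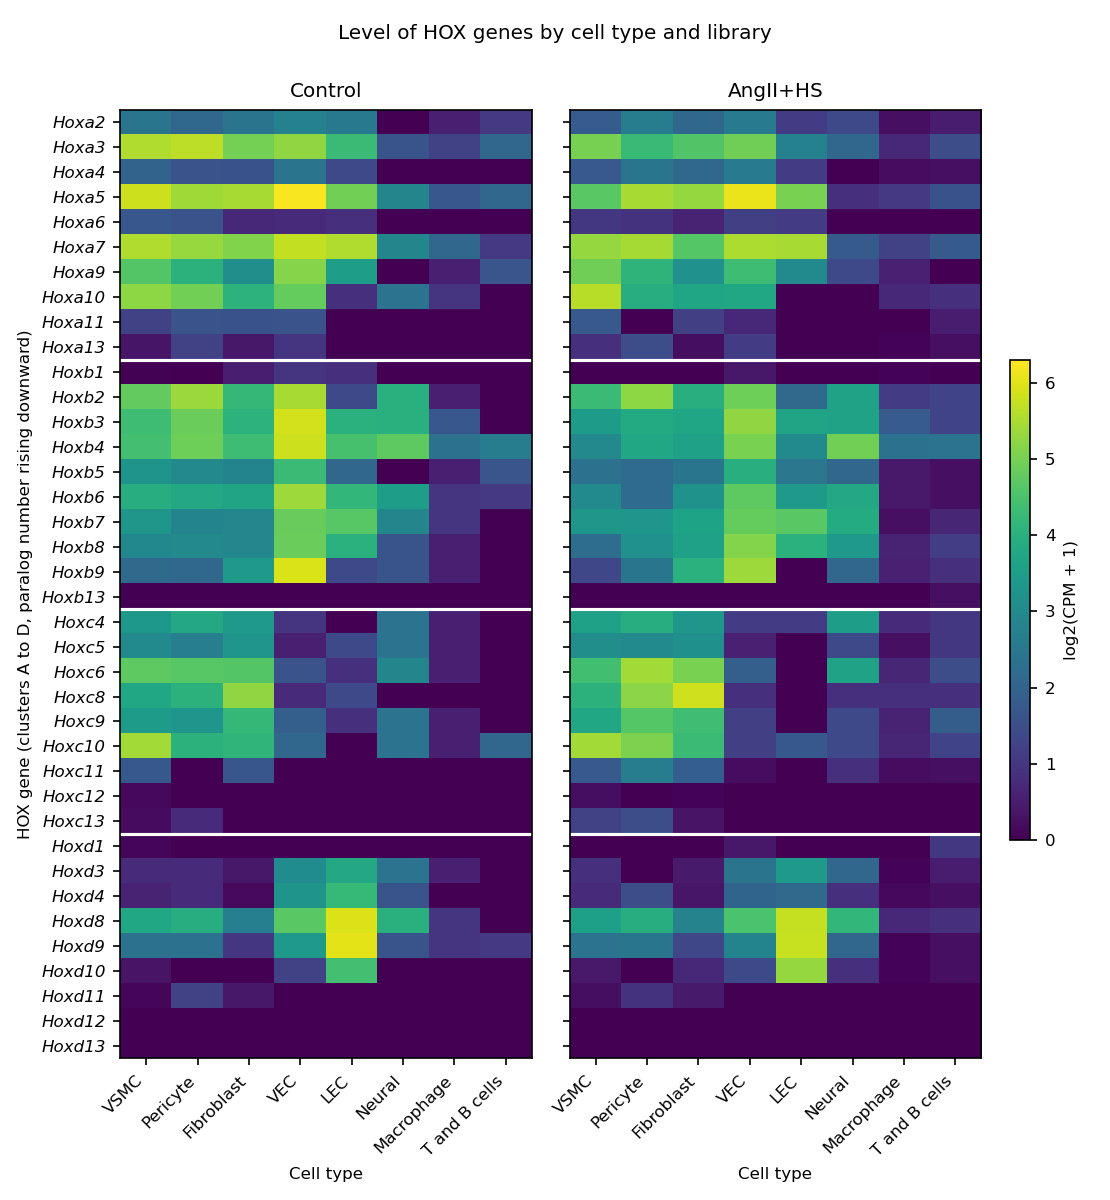
Level of the HOX genes reported (rows, clusters A to D, each with paralog numbers rising from top to bottom) in 8 cell types (columns) of the Control and AngII+HS libraries, as log2(CPM + 1). VSMCs, pericytes and fibroblasts show HOXA, HOXB and HOXC genes, VECs show HOXA and HOXB with HOXC near 0, LECs stand out at Hoxd8 to Hoxd10, and macrophages and T and B cells are dark.

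A member was counted as detected in a cell type if it had at least 20 UMIs in each library and its interval lay above that of T and B cells in both. By that rule 17 of the 39 members were detected in VSMCs, or 17 of the 20 that reached 20 UMIs in each library, where 29.4% of all genes with that many UMIs passed. Fibroblasts had 18 of 22 such members (26.8% of all genes), VECs 16 of 17 (27.3%), pericytes 7 of 7 (33.1%) and LECs 6 of 6 (31.5%). Members that reach 20 UMIs only where they are high had to pass, so these shares are a description. Neural cells (39.2%), macrophages (22.9%) and neutrophils (43.7%) had 0, and in each of these no member reached 20 UMIs in both libraries. Depth sets part of these counts, since the 138 and 157 LECs hold few UMIs.

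Which clusters were read differed by cell type. In VSMCs the 17 detected members were 5 of HOXA, 5 of HOXB, 6 of HOXC and Hoxd8. In fibroblasts they were 4 of HOXA, 7 of HOXB, 6 of HOXC and again Hoxd8. VECs had 5 of HOXA, 8 of HOXB and 3 of HOXD (Hoxd3, Hoxd8, Hoxd9), and 0 of the 9 HOXC genes. LECs had Hoxa5, Hoxa7 and Hoxb7 beside Hoxd8, Hoxd9 and Hoxd10, and again 0 of HOXC.

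The ends of the clusters were hardly seen in any of these types. The highest paralog group detected in VSMCs, fibroblasts, VECs, pericytes or LECs was 10. Groups 11 to 13, which pattern the tail end, the distal limb and the genital tract, together gave 4.26 CPM in Control and 7.29 CPM in AngII+HS VSMCs, 4.84 and 4.82 CPM in fibroblasts, 3.001 and 1.94 CPM in VECs, and 0 UMIs in LECs of both libraries. Hoxd12 and Hoxd13 had 0 UMIs in VSMCs, fibroblasts, VECs and LECs of both libraries. At the other end, Hoxb1, a hindbrain gene, had 1 UMI in Control and 0 in AngII+HS VSMCs, and Hoxd1 had 4 and 0.

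The share of HOX UMIs that came from each cluster showed the same split. HOXC gave 23.96% in Control and 30.2% in AngII+HS VSMCs and 32.2% and 40.6% in fibroblasts, but 1.60% and 1.66% in VECs and 1.23% and 1.07% in LECs. HOXB gave 52.4% and 50.6% in VECs, against 23.8% and 16.3% in VSMCs and 26.1% and 24.7% in fibroblasts. HOXD gave 44.8% and 48.0% in LECs and at most 8.17% in VSMCs, fibroblasts and VECs. HOXA was the largest in VSMCs, at 48.3% and 48.9%. In neural cells, where the shares rest on 67 and 197 UMIs, HOXB gave 53.7% and 59.9%.

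**Figure D2:**
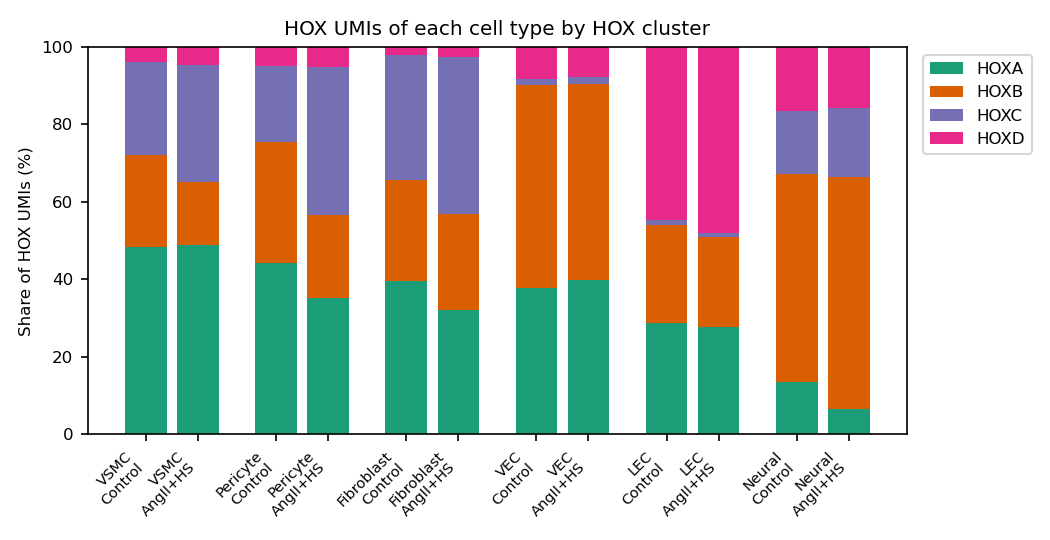
Share of HOX UMIs (vertical axis, %) from HOXA, HOXB, HOXC and HOXD in 6 cell types, 1 bar for each library. HOXC takes 23.96% and 30.2% in VSMCs but 1.60% and 1.66% in VECs, and HOXD takes 44.8% and 48.0% in LECs.

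The libraries matched closely. Across the 39 members, the correlation of log2(CPM + 1) between Control and AngII+HS was 0.965 (Pearson) and 0.968 (Spearman) in VSMCs, 0.979 and 0.959 in fibroblasts, 0.983 and 0.973 in VECs, 0.927 and 0.860 in LECs and 0.813 and 0.780 in neural cells. Genes are not independent replicates, and points at 0 in both libraries raise these values. Between cell types of Control, Pearson r was 0.949 between VSMCs and fibroblasts, 0.726 between VSMCs and VECs, 0.659 between fibroblasts and VECs, 0.744 between VECs and LECs, and 0.455 between VSMCs and LECs. Among VSMCs, fibroblasts, VECs and LECs, each type had a higher r with itself in the other library than with the other 3 types in its own. Pericytes did not: r was 0.9005 between the libraries, against 0.964 with VSMCs and 0.935 with fibroblasts in Control and 0.924 and 0.930 in AngII+HS.

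To ask which members separated the main cell types, a member was called when it differed at least 2-fold in the same direction in both libraries, with at least 20 UMIs over the compared types in each library. The other library is the nearest thing to a repeat here, though it differs in treatment.

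Fibroblasts and VSMCs differed in few members. Of 27 tested, Hoxb9 and Hoxc8 were higher in fibroblasts (15.3% of all genes tested were called in that direction), and Hoxa9, Hoxa10, Hoxc10 and Hoxd9 were lower (7.47%). Only 14 of 27 had the same direction in both libraries. The median log2 ratio of fibroblasts over VSMCs was -0.27 in Control and 0.14 in AngII+HS, against 0.12 and 0.08 over all genes tested.

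Hoxc8, which shapes the thoracic skeleton, had 37.3 CPM in Control and 56.4 CPM in AngII+HS fibroblasts. VSMCs had 12.7 and 15.4 CPM of it. The log2 ratio was 1.56 (95% interval 1.36 to 1.75) and 1.87 (1.56 to 2.19), so fibroblasts were the higher type in both libraries. Hoxb9, a thoracic paralog, had 9.46 and 15.2 CPM in fibroblasts and 3.54 and 1.53 CPM in VSMCs, the last from 9 UMIs. Its log2 ratio was 1.42 (1.03 to 1.79) and 3.32 (2.38 to 4.46).

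Hoxa9 and Hoxa10 lie side by side in HOXA and are known for roles in blood progenitors and in the uterus. Hoxa9 had 23.4 and 29.7 CPM in VSMCs and 7.70 and 8.17 CPM in fibroblasts, log2 ratios of -1.60 (-1.97 to -1.25) and -1.86 (-2.15 to -1.57). Hoxa10 had 36.6 and 48.0 CPM in VSMCs and 16.0 and 12.1 CPM in fibroblasts, log2 ratios of -1.20 (-1.45 to -0.95) and -1.98 (-2.22 to -1.75). Muscle was the higher type for both genes in both libraries. Hoxc10, a lumbar and hindlimb gene, had 42.1 and 42.2 CPM in VSMCs and 16.5 and 18.7 CPM in fibroblasts, log2 ratios of -1.35 (-1.60 to -1.11) and -1.18 (-1.40 to -0.95). HOXC was thus divided, with Hoxc8 higher in fibroblasts and Hoxc10 higher in VSMCs, while Hoxc9 between them had log2 ratios of 0.79 and 0.63.

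Among members named for being called, Hoxd9 had 4.07 and 4.24 CPM in VSMCs and 0.990 and 1.55 CPM in fibroblasts, from 9 and 42 UMIs. Hoxd8, not called, had log2 ratios of -1.15 and -0.84. Hoxb8, also not called, had -0.03 in Control and 1.59 in AngII+HS. The summed HOXA genes were lower in fibroblasts than in VSMCs, with log2 ratios of -0.63 and -0.67. For summed HOXC the log2 ratio was 0.08 in Control, where scaling with TMM factors gave -0.07, and 0.37 in AngII+HS.

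Some of these calls depended on which clusters stood for a type. The recounts that follow have no share of all genes beside them. With the Col19a1/Des cluster alone as VSMCs, 2 members were called higher in fibroblasts, but they were Hoxb8 and Hoxb9, and Hoxc8 was not among them. Fibroblasts were made of clusters led by Comp and Sfrp1 (434 Control and 2131 AngII+HS cells), Dio2 and Hhip (801 and 1119), Scara5 and Clec3b (722 and 849) and, in AngII+HS only, Prg4 and Mmp13 (0 and 165). With the Dio2/Hhip cluster alone as fibroblasts, 1 member, Hoxd9, was called lower in place of 4. With the Scara5/Clec3b cluster alone, 1 member, Hoxc8, was called higher, and 3 (Hoxa9, Hoxa10, Hoxc10) lower. Without integration of the libraries, where only 1375 Control VSMCs kept the name, 1 member was called higher and 0 lower.

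The same clusters were compared with each other, a choice made after the data were seen. Hoxb3, expressed in the pharyngeal region and hindbrain, and Hoxb9 were called higher in the Dio2/Hhip than in the Scara5/Clec3b cluster, 2 of 22 tested (4.45% of genes were called in that direction), and 0 were lower (3.24%). Hoxb9 had 14.8 and 16.0 CPM in the former and 4.25 and 6.36 CPM in the latter. Hoxb3 had 24.01 and 12.6 CPM against 10.2 and 5.68 CPM. Between the Comp/Sfrp1 and Dio2/Hhip clusters 0 of 21 were called in either direction (0.896% and 1.85%). Hoxc8 was between 31.9 and 68.1 CPM in these 3 fibroblast clusters of both libraries and 49.5 CPM in the Prg4/Mmp13 cluster.

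VECs and VSMCs differed far more. Of 25 members tested, 10 were higher in VECs (17.2% of all genes tested), namely Hoxb3 to Hoxb9, Hoxd3, Hoxd4 and Hoxd8, and 6 were lower (9.5%), namely Hoxc4, Hoxc5, Hoxc6, Hoxc8, Hoxc9 and Hoxc10. The direction was the same in both libraries for 24 of 25. The median log2 ratio was 0.57 in Control and 1.007 in AngII+HS, against 0.15 and 0.32 over all genes. The called members fell by cluster: 7 of the 10 HOXB genes were called higher in VECs and 0 lower, and 6 of the 9 HOXC genes were called lower and 0 higher.

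Hoxb9 showed the widest gap above VSMCs. It had 60.5 CPM (262 UMIs) in Control and 40.7 CPM (252 UMIs) in AngII+HS VECs, against 3.54 and 1.53 CPM in VSMCs, log2 ratios of 4.10 (3.82 to 4.37) and 4.74 (3.79 to 5.88). By cell, 21.5% and 15.9% of VECs had a Hoxb9 UMI, compared with 3.20% and 1.27% of the deeper VSMCs and 0 and 0.191% of T and B cells. Hoxb8, whose promoter is shown above, had 27.9 and 34.1 CPM in VECs and 6.72 and 3.73 CPM in VSMCs, log2 ratios of 2.06 (1.75 to 2.36) and 3.19 (2.56 to 3.897). The other called HOXB genes, Hoxb3 to Hoxb7, had log2 ratios of 1.11 to 2.23 over the libraries. Hoxb2, at the 3′ end, stayed under the line with 0.73 and 0.66.

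The HOXC genes were close to the level of free RNA in VECs. Hoxc8 had 3 and 5 UMIs in all VECs of Control and AngII+HS (0.693 and 0.808 CPM), against 12.7 and 15.4 CPM in VSMCs, log2 ratios of -4.19 (-6.48 to -2.64) and -4.26 (-5.91 to -2.98). Hoxc10 had 3.23 and 1.29 CPM in VECs and 42.1 and 42.2 CPM in VSMCs, log2 ratios of -3.70 (-4.58 to -2.95) and -5.03 (-6.26 to -4.03). Hoxc6, a thoracic gene, had 2.08 and 2.75 CPM in VECs and 25.5 and 20.01 CPM in VSMCs.

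Hoxc4, the 3′-most HOXC gene, had 4 and 7 UMIs in VECs, log2 ratios of -3.32 and -3.31. Hoxc5 had 2 and 3 UMIs, with -3.91 and -3.98, and Hoxc9 12 and 8 UMIs, with -1.86 and -3.30. Summed over the cluster, HOXC was lower in VECs by a log2 ratio of -3.42 (-3.89 to -2.997) in Control and -3.84 (-4.29 to -3.42) in AngII+HS. T and B cells held 3.21 and 8.93 CPM of HOXC in sum, against 10.2 and 7.92 CPM in VECs. The VSMC markers summed to 902 and 804 CPM in VECs, against 28460 and 39873 CPM in VSMCs, and their part in the remaining HOXC UMIs was not tested.

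No HOXA gene was called in either direction between all VECs and all VSMCs, though single members leaned to different sides. Hoxa10 was lower in VECs in both libraries, with 27.2 and 12.8 CPM against 36.6 and 48.0 CPM in VSMCs. Hoxa7 had 51.9 and 44.8 CPM in VECs and 45.6 and 38.8 CPM in VSMCs, log2 ratios of 0.19 and 0.21 with intervals of -0.02 to 0.38 and -0.05 to 0.46. Hoxa5, known from lung and rib development, had 74.6 and 68.7 CPM in VECs and 55.3 and 24.9 CPM in VSMCs, ratios of 0.43 and 1.46. Hoxa9 was the one tested member whose direction differed between libraries, 0.57 (0.31 to 0.81) in Control and -0.63 (-0.97 to -0.28) in AngII+HS. The summed HOXA ratio was 0.13 in Control and 0.05 in AngII+HS, and turned to -0.16 and -0.33 with TMM factors.

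Of HOXD, Hoxd3 and Hoxd4, named here because they were called although they had under 50 UMIs in a library, had 7.39 and 4.36 CPM and 8.54 and 3.07 CPM in VECs, and under 1 CPM in VSMCs. Hoxd8 had 24.9 and 21.8 CPM in VECs and 12.5 and 10.9 CPM in VSMCs, which put its log2 ratios of 1.002 and 1.007 at the 2-fold line. The summed level of all HOX genes was higher in VECs than in VSMCs by 0.48 in Control and by 0.35 in AngII+HS, but with TMM factors these were 0.19 and -0.04. Over all genes with at least 20 UMIs in the library at hand, TMM moved the median from 0.17 to -0.12 in Control and from 0.34 to -0.05 in AngII+HS. With TMM factors 8 members were called higher in VECs in place of 10, Hoxb5 and Hoxd8 falling under 2-fold in Control, and the 6 lower ones stayed 6. Summed HOXB then had 1.33 and 1.60 and summed HOXC -3.72 and -4.22.

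The HOXB calls rested in part on 1 endothelial cluster. VECs were made of a cluster led by Cytl1 and Gja5, genes of arterial endothelium (497 Control and 397 AngII+HS cells), and a cluster led by Fabp4 and Gpihbp1, genes of capillary endothelium (341 and 806 cells). With the Fabp4/Gpihbp1 cluster alone, 3 members (Hoxb8, Hoxb9, Hoxd3) were called higher than in VSMCs in place of 10, and 6 lower. These 6 were Hoxa10, Hoxc4, Hoxc5, Hoxc6, Hoxc8 and Hoxc10, without Hoxc9. With the Cytl1/Gja5 cluster alone, 8 were called higher, Hoxb2 to Hoxb9. The 6 lower there were the HOXC genes called for all VECs. Without integration of the libraries 5 were higher. With the smaller VSMC cluster alone, led by Col19a1 and Des, 3 members (Hoxc4, Hoxc6, Hoxc10) were called lower. The 10 called higher in VECs then included Hoxa4 and Hoxa5. For these recounts too, no share of all genes is given.

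**Figure D3:**
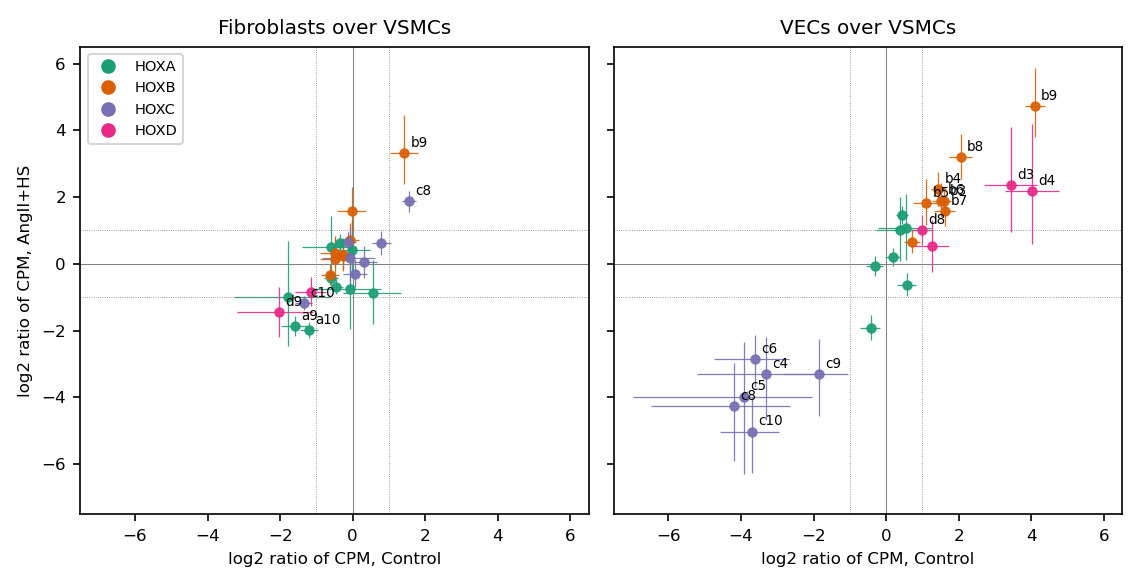
Log2 ratio of CPM for each tested HOX gene in Control (horizontal) and AngII+HS (vertical), for fibroblasts over VSMCs (left, 27 genes) and VECs over VSMCs (right, 25 genes). Bars are exact 95% counting intervals, dotted lines mark 2-fold, and called genes are labelled. On the right, HOXC genes lie far to the lower left and HOXB genes to the upper right, while most genes on the left lie near 0.

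Against fibroblasts, which share the VEC values just given, 12 of 27 members were higher in VECs (12.2% of all genes tested) and 7 were lower (11.2%), with 26 of 27 in the same direction in both libraries. The median log2 ratio was 1.15 and 0.90, against 0.07 and 0.29 over all genes. The 12 were Hoxa9, Hoxb3 to Hoxb9, Hoxd3, Hoxd4, Hoxd8 and Hoxd9, and the 7 were Hoxc4, Hoxc5, Hoxc6 and Hoxc8 to Hoxc11. Hoxc8 had the widest gap, with log2 ratios of -5.75 (-8.04 to -4.19) and -6.12 (-7.75 to -4.90). The other 5 HOXC genes with at least 50 UMIs in each library of a type, Hoxc4, Hoxc5, Hoxc6, Hoxc9 and Hoxc10, had ratios of -4.23 to -2.35. Hoxc11 had 20 UMIs in Control and 73 in AngII+HS fibroblasts, against 0 and 1 in VECs.

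Hoxb9 had log2 ratios of 2.68 (2.32 to 3.05) and 1.42 (1.19 to 1.65) for VECs over fibroblasts. Hoxd8 had 5.61 and 6.07 CPM in fibroblasts, ratios of 2.15 (1.66 to 2.66) and 1.85 (1.51 to 2.18). Hoxb2 was at the line with 1.34 and 0.998 and was not called. With the Fabp4/Gpihbp1 cluster alone as VECs, 6 members were higher in place of 12, Hoxb4, Hoxb5, Hoxb7, Hoxb8, Hoxd8 and Hoxd9, and 6 HOXC genes were lower.

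Within the vascular endothelium, a comparison chosen after the data were seen, HOX genes were higher in the Cytl1/Gja5 cluster. They summed to 748 and 657 CPM there and to 461 and 376 CPM in the Fabp4/Gpihbp1 cluster. By the rule for detection the former had 14 members (29.5% of genes with that many UMIs passed) and the latter 13 (28.3%), the difference being Hoxa10. Of 17 members tested, 5 were called higher, Hoxa9, Hoxa10, Hoxb3, Hoxb6 and Hoxb9 (6.75% of all genes tested), and 0 lower (5.94%). The median log2 ratio was 0.68 and 0.75, against 0.07 and -0.02 over all genes.

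Hoxa10 had 37.6 and 31.4 CPM in the Cytl1/Gja5 cluster and 11.2 and 2.51 CPM in the Fabp4/Gpihbp1 cluster, the last from 10 UMIs, log2 ratios of 1.75 (1.03 to 2.54) and 3.65 (2.68 to 4.77). Its neighbour Hoxa9 had 45.6 and 42.8 CPM against 17.7 and 6.26 CPM, ratios of 1.37 (0.78 to 1.996) and 2.77 (2.12 to 3.47). Hoxb9 had 75.9 and 69.2 CPM against 36.5 and 25.1 CPM, ratios of 1.06 (0.64 to 1.49) and 1.46 (1.09 to 1.84). Hoxb3 had ratios of 1.13 and 1.66, and Hoxb6 of 1.22 and 1.30. By contrast Hoxa5 had 81.3 and 65.1 CPM against 64.2 and 70.7 CPM, and Hoxb8 had ratios of 0.12 and 0.12. HOXC summed to 5.70 and 6.37 CPM in the Cytl1/Gja5 cluster and to 17.1 and 8.77 CPM in the Fabp4/Gpihbp1 cluster.

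LECs were marked by the middle of HOXD. In comparisons added after the data were seen, Hoxd8, Hoxd9 and Hoxd10 were called higher in LECs than in VECs, 3 of 20 tested (4.89% of all genes tested). Another 10 were called lower (7.7%), Hoxa4, Hoxa5, Hoxa9, Hoxa10, Hoxb2 to Hoxb6 and Hoxb9. Hoxa4 rested on 2 and 1 UMIs in LECs, and its intervals span 0 in both libraries. Hoxd9 had 64.7 CPM (51.3 to 80.6) in Control and 53.9 CPM (39.4 to 71.9) in AngII+HS LECs, against 9.70 and 6.14 CPM in VECs, log2 ratios of 2.74 (2.18 to 3.31) and 3.13 (2.48 to 3.79). Hoxd10, a lumbar motor neuron gene, had 20.2 and 38.7 CPM in LECs and 1.39 and 1.62 CPM in VECs, ratios of 3.87 (2.55 to 5.44) and 4.58 (3.53 to 5.77). Hoxd8, shown above, had 61.5 and 52.7 CPM against 24.9 and 21.8 CPM, ratios of 1.30 (0.86 to 1.74) and 1.27 (0.75 to 1.77). Next to these, Hoxd11, Hoxd12 and Hoxd13 had 0 UMIs in LECs of both libraries, so the expressed stretch ended at Hoxd10. By cell, 39.1% and 21.7% of LECs had a Hoxd9 UMI, against 4.53% and 2.99% of VECs and 0.435% and 0.0478% of T and B cells.

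Some of the genes that were high in VECs went the other way. Others did not: beside Hoxd8, Hoxd3 had log2 ratios of LECs over VECs of 0.81 and 1.10 and Hoxd4 of 1.06 and 0.19. Hoxb7 was close, with -0.19 and -0.15. Hoxb9 had 2 UMIs in Control and 0 in AngII+HS LECs, against 262 and 252 in VECs, and Hoxa10 had 1 and 0 UMIs, against 118 and 79. For AngII+HS LECs a count of 0 has an exact 95% upper bound of 4.32 CPM, and the 3 counts used for ratios are 3.51 CPM. Hoxa7 was close in both types, with 46.1 and 43.3 CPM in LECs and log2 ratios to VECs of -0.17 (-0.62 to 0.25) and -0.05 (-0.58 to 0.45). Against VSMCs, 5 of 21 members were higher in LECs (14.3% of all genes tested), Hoxb7, Hoxb8, Hoxd8, Hoxd9 and Hoxd10, and 10 were lower (12.8%), including 6 HOXC genes. Summed HOXD was higher in LECs than in VSMCs by 3.29 (3.07 to 3.50) and 3.21 (2.82 to 3.59) on the log2 scale.

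**Figure D4:**
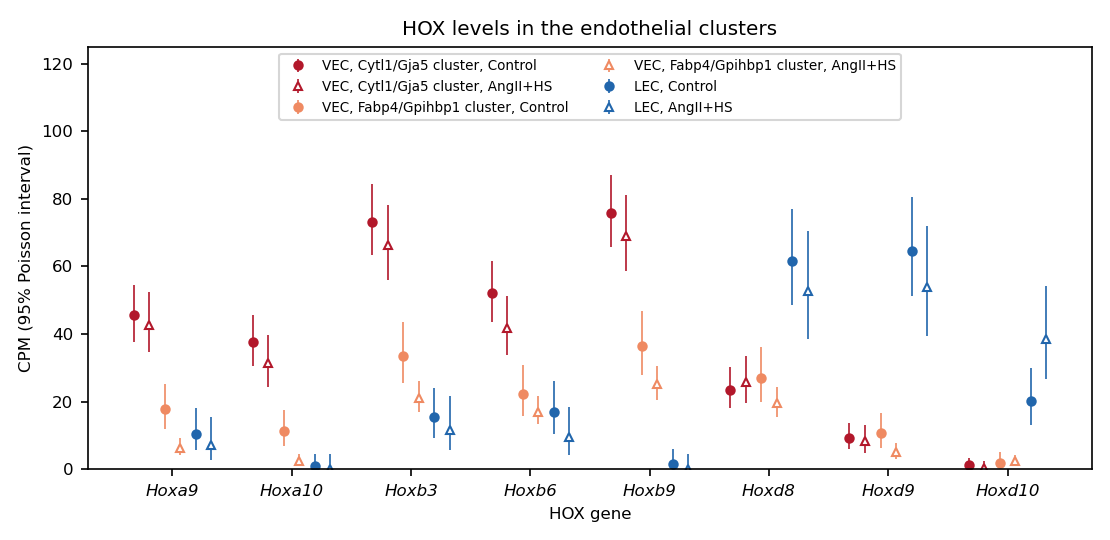
Level (CPM, vertical axis) of 8 HOX genes in the Cytl1/Gja5 and Fabp4/Gpihbp1 clusters of VECs and in LECs. Filled circles are Control, open triangles AngII+HS and bars exact 95% Poisson intervals. Hoxa9 to Hoxb9 fall from the Cytl1/Gja5 cluster to the Fabp4/Gpihbp1 cluster and are low in LECs, whereas Hoxd8, Hoxd9 and Hoxd10 are highest in LECs.

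Pericytes (175 Control and 217 AngII+HS cells, led by Pln, Notch3 and Higd1b) resembled VSMCs. Their summed HOX level was 429 CPM (396 to 463) and 425 CPM (388 to 465), and 0 of 22 members were called against VSMCs in either direction (6.14% of all genes tested higher and 3.53% lower). The name is weak: the 6 pericyte markers summed to 2454 and 5364 CPM in this cluster, under the 5858 and 6587 CPM of VSMCs, and VSMC markers summed to 29843 and 19415 CPM in it. Between the VSMC clusters, led by Mylk4 and Npnt (4146 and 520 cells) and by Col19a1 and Des (893 and 111), 0 of 20 were called in either direction (0.697% and 0.819%).

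In neural cells more members were called lower than higher. Of 22 members tested against fibroblasts, Hoxd8 was called higher (14.9% of all genes tested) and 10 lower (8.24%). Against VECs, 0 of 18 were higher (11.8%) and 12 lower (11%). Few neural UMIs stand behind these calls. Hoxd8 rested on 7 in Control and 21 in AngII+HS. Of those lower than in VECs, Hoxa9 had 0 and 2, Hoxd4 1 and 1, and Hoxb2 and Hoxb3 7 and 14 each. Hoxb4, known for its action in blood stem cells, had 25.5 CPM from 12 UMIs and 29.9 CPM from 37 UMIs in neural cells. In T and B cells Hoxb4 had 5.35 and 4.26 CPM, and in macrophages 4.13 and 4.20 CPM.

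Between AngII+HS and Control, values could be compared once in each cell type, with no repeat. In VSMCs, 30 members had at least 20 UMIs over both libraries. Hoxa13, a gene of distal limb and genital tubercle, was at least 2-fold higher in AngII+HS (5.94% of all genes tested were) and 6 members were at least 2-fold lower (12%): Hoxa5, Hoxa6, Hoxb4, Hoxb5, Hoxb6 and Hoxb9. The median log2 ratio of AngII+HS over Control was -0.18, against -0.06 over all genes. Depth was 52837984 UMIs in Control VSMCs and 5898259 in AngII+HS, so that AngII+HS values carry the larger counting error.

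Hoxb4 had 20.4 CPM in Control and 6.78 CPM in AngII+HS VSMCs (1079 and 40 UMIs), a log2 ratio of -1.59 (-2.08 to -1.14). Hoxa5 had 55.3 and 24.9 CPM (2920 and 147 UMIs), a ratio of -1.15 (-1.40 to -0.91). Hoxb5 and Hoxb6 had ratios of -1.08 (-1.73 to -0.48) and -1.02 (-1.51 to -0.57). Hoxa13 rested on 15 and 5 UMIs, with a ratio of 1.58 and an interval of -0.24 to 3.11 that spans 0. Hoxa6 and Hoxb9 had 6 and 9 UMIs in AngII+HS.

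In sum, the highest paralog groups did not share this direction, but single members did not all follow their group. Hoxb9, of group 9, had a ratio of -1.21 (-2.365 to -0.26). Of groups 4 to 8, Hoxb7, Hoxc4, Hoxc5 and Hoxc8 had 0.02, 0.28, 0.13 and 0.28, with intervals that span 0. Groups 1 to 3 summed to 98.5 and 64.6 CPM, groups 4 to 8 to 232 and 164 CPM, and groups 9 to 13 to 124 and 146 CPM. The log2 ratios were -0.61 (-0.76 to -0.46), -0.51 (-0.60 to -0.41) and 0.23 (0.13 to 0.34). The groups 9 to 13 thereby went from 27.3% to 39.0% of HOX UMIs. In the same VSMCs, the summed fibroblast markers went from 1570 to 3855 CPM, macrophage markers from 10.6 to 47.0 CPM and neutrophil markers from 5.77 to 132 CPM, and their part in the HOX ratios was not tested. Hoxa9 had a ratio of 0.35 (0.11 to 0.57), Hoxa10 of 0.39 (0.21 to 0.57) and Hoxc10 of 0.00 (-0.19 to 0.19). Summed HOXB had -0.83 (-0.99 to -0.68), whereas HOXC had 0.05 (-0.07 to 0.17), a sign that turned to -0.02 when free RNA was subtracted. With the Col19a1/Des cluster alone, 0 of 24 members were higher (5.26%) and 2, Hoxa5 and Hoxc8, were lower (10.4%). With the Mylk4/Npnt cluster alone, 1 of 29, Hoxa11, was higher (5.37%) and 6 were lower (12.2%), Hoxb3 taking the place of Hoxa6. Without integration of the libraries 9 were higher. The number tested and the share of all genes in that run are not given, so the 9 has no background beside it.

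In fibroblasts 0 of 27 members were 2-fold higher (7.8% of all genes tested) or lower (8.65%). The median log2 ratio was -0.14, against -0.15 over all genes. Hoxc8 had 37.3 and 56.4 CPM, a ratio of 0.60 (0.43 to 0.77), Hoxb7 6.49 and 11.6 CPM, a ratio of 0.83 (0.43 to 1.26), and Hoxb4 19.5 and 11.1 CPM, a ratio of -0.80 (-1.08 to -0.53). Summed HOXC had 0.34 (0.25 to 0.44) and summed HOXA -0.30 (-0.39 to -0.20). The largest fibroblast cluster was the Dio2/Hhip cluster in Control (801 of 1957 cells) and the Comp/Sfrp1 cluster in AngII+HS (2131 of 4264 cells). In these and the Scara5/Clec3b cluster taken alone, 2 or 3 members were higher (8.47%, 5.72% and 6.85% of genes in the Comp/Sfrp1, Dio2/Hhip and Scara5/Clec3b clusters) and 1 lower (7.57%, 6.77% and 7.22%). Hoxc8 in the Comp/Sfrp1 cluster had 31.9 and 68.1 CPM, a ratio of 1.10 (0.73 to 1.49), while Hoxb4 was the member lower in the Dio2/Hhip and in the Scara5/Clec3b cluster.

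In VECs 0 of 22 members were 2-fold higher (8.23% of all genes tested) and 4 lower (5.99%): Hoxa10, Hoxc9, Hoxc10 and Hoxd4. Of the 22, 19 had a ratio below 0, and the median was -0.58, against 0.05 over all genes. Hoxa10 had 27.2 and 12.8 CPM, a log2 ratio of -1.09 (-1.52 to -0.67), and Hoxd4 8.54 and 3.07 CPM, a ratio of -1.48 (-2.36 to -0.64). Hoxc9 and Hoxc10 rested on 20 and 22 UMIs over both libraries, and their intervals of -2.60 to 0.31 and -2.78 to 0.03 span 0. Hoxb9 had a ratio of -0.57 (-0.83 to -0.32), and Hoxb8 of 0.29 (-0.04 to 0.62). All HOX genes summed had -0.42 (-0.49 to -0.34), and groups 9 to 13 -0.75 (-0.92 to -0.57).

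Most Control VECs lay in the Cytl1/Gja5 cluster, where HOX genes were higher, and most AngII+HS VECs in the Fabp4/Gpihbp1 cluster. Within the Cytl1/Gja5 cluster the median ratio of 19 members was -0.14, 0 were higher (6.95%) and 1, Hoxd4, was lower (4.63%). Hoxa10 had 37.6 and 31.4 CPM there, a ratio of -0.26 (-0.72 to 0.20). Within the Fabp4/Gpihbp1 cluster the median of 20 members was -0.46, with 1 higher (10.5%), Hoxa4, and 4 lower (6.47%), Hoxa9, Hoxa10, Hoxd4 and Hoxd9. Hoxa4 rested on 4 and 19 UMIs, with an interval of -0.57 to 3.03 that spans 0. Hoxa10 went from 11.2 to 2.51 CPM there, a ratio of -2.16 (-3.43 to -0.98). The summed HOX ratio was -0.19 (-0.29 to -0.09) in the former cluster and -0.30 (-0.42 to -0.17) in the latter, both nearer 0 than the pooled value.

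**Figure D5:**
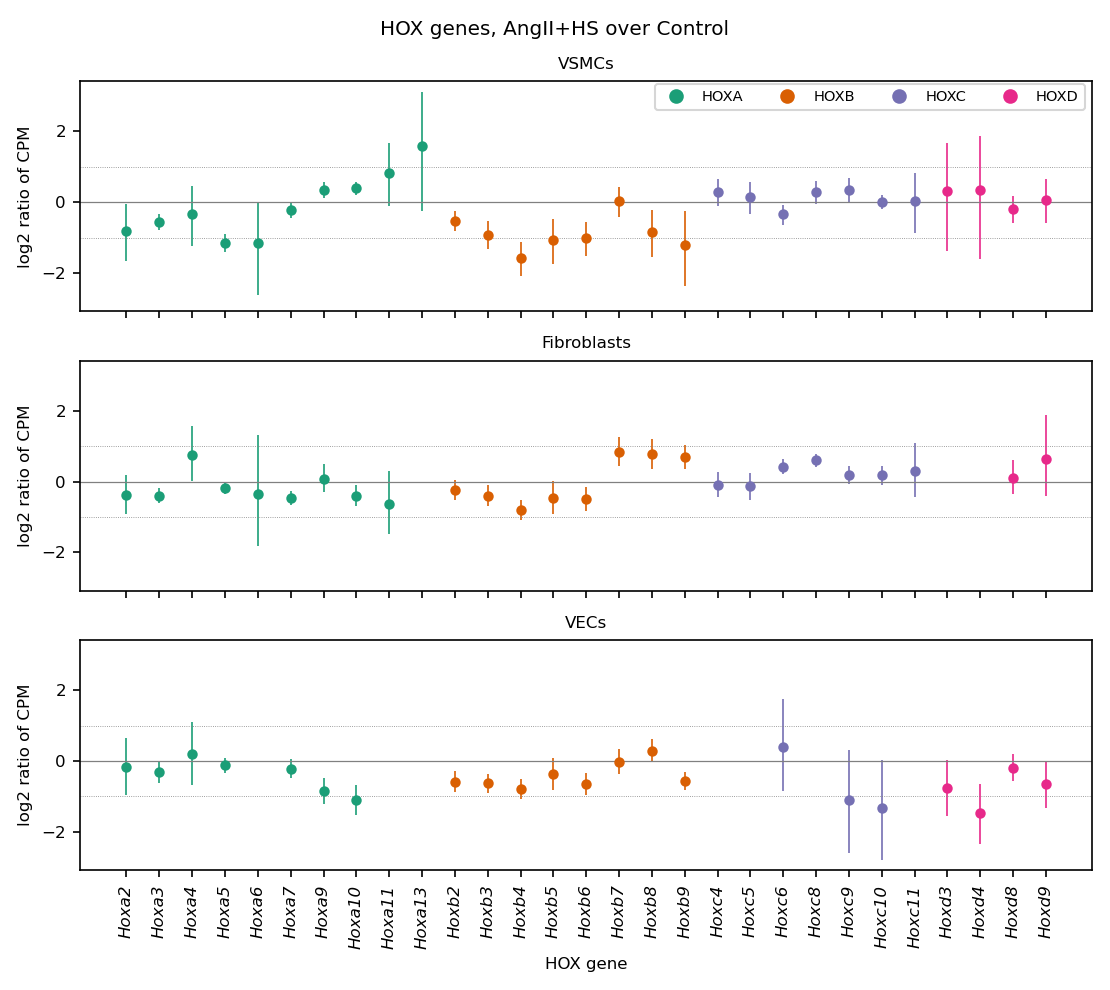
Log2 ratio of CPM, AngII+HS over Control, for the tested HOX genes reported in VSMCs, fibroblasts and VECs, with exact 95% counting intervals and dotted lines at 2-fold. There is 1 library on each side. Hoxb3 to Hoxb6 lie below 0 in each panel, and Hoxa9 and Hoxa10 lie above 0 in VSMCs and below 0 in VECs.

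In LECs 0 of 13 members were higher (8.05%) and 3, Hoxa3, Hoxb4 and Hoxd4, were lower (4.33%). The pericyte cluster had 3 of 15 higher (8.96%), Hoxc8, Hoxc9 and Hoxc10, and 5 lower (6.16%), Hoxa3, Hoxa10, Hoxb3, Hoxb4 and Hoxb6. Its summed HOXC was 83.7 and 162 CPM, a ratio of 0.96 (0.62 to 1.30). Fibroblast markers in that cluster summed to 1070 and 2213 CPM and VEC markers to 714 and 3087 CPM, and their part in the HOXC ratio was not tested. In neural cells 1 of 6, Hoxb7, was higher (6.9%) and 0 lower (4.17%). Hoxb7 rested there on 3 and 17 UMIs, with a ratio of 1.11 and an interval of -0.68 to 3.52 that spans 0.

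PBX, MEIS and PKNOX proteins bind DNA beside HOX factors. Of their 9 genes, Pbx4 was called higher in fibroblasts than in VSMCs and 0 lower. Pbx4 had 1.87 and 2.06 CPM in fibroblasts, and 0.530 and 0.509 CPM in VSMCs, the last from 3 UMIs. T and B cells had 4.28 and 2.44 CPM of Pbx4, above both types. Meis1 and Meis3 were lower in VECs than in VSMCs with 0 higher. Against fibroblasts, Pbx2 was higher in VECs and Meis1, Meis3 and Pknox2 lower. Meis2 had 217 and 152 CPM in VSMCs, 287 and 263 CPM in fibroblasts, and 257 and 139 CPM in VECs. Meis1, outside the most abundant genes and named after its values were seen, had 93.9 and 86.8 CPM in VSMCs, 98.7 and 80.4 CPM in fibroblasts, and 21.5 and 8.08 CPM in VECs. Between AngII+HS and Control, Pknox1 was lower in VSMCs, 0 of 9 passed 2-fold in fibroblasts, and Meis1 was lower in VECs.

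Polycomb and trithorax complexes hold HOX clusters closed or open. Of 18 such regulators, Kdm6b, an H3K27 demethylase, was higher in fibroblasts than in VSMCs, 0 were called between VECs and VSMCs, and Cbx7 was higher in VECs than in fibroblasts. Over all genes 15.3%, 17.2% and 12.2% were called higher in these 3 comparisons in turn, and 7.47%, 9.5% and 11.2% lower. These are the shares to set beside the cell-type counts of each list here. For AngII+HS over Control, the shares of all genes at least 2-fold higher were 5.94% in VSMCs, 7.8% in fibroblasts and 8.23% in VECs. The shares at least 2-fold lower were 12%, 8.65% and 5.99% in the same order. Kdm6b, which also responds to cell stress, had 337 and 120 CPM in VSMCs, 759 and 459 CPM in fibroblasts and 606 and 430 CPM in VECs. Ezh2, the H3K27 methyltransferase of Polycomb complexes, had 83.0 and 26.4 CPM in VSMCs and was one of 3 regulators 2-fold lower in AngII+HS VSMCs, with Cbx2 and Kdm6b. In fibroblasts 0 of 18 passed 2-fold between conditions, and in VECs Cbx8 was lower. Kmt2a, the trithorax-type counterpart, had 161 and 114 CPM in VSMCs, and the Polycomb partner Jarid2 61.1 and 51.9 CPM.

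Retinoic acid induces 3′ HOX genes in the embryo, and the Aldh1a enzymes make it. Of 12 retinoic acid genes tested out of 16, Aldh1a1, Aldh1a2, Aldh1a3 and Crabp2 were higher in fibroblasts than in VSMCs and 0 lower. In VECs, Aldh1a3, Rara and Cyp26b1 of 10 tested were higher than in VSMCs with 0 lower, and 3 of 12 (Aldh1a1, Aldh1a2, Aldh1a3) were lower than in fibroblasts with 0 higher. Between AngII+HS and Control, 1 of 11 was higher and 2 lower in VSMCs, 3 of 13 higher and 2 lower in fibroblasts, and 0 of 11 higher and 2 lower in VECs.

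Other factors that pattern the embryo made up a list of 25. Of these, 8 of 18 tested were higher in fibroblasts than in VSMCs and 1, Tbx18, lower. In VECs 5 of 15 were higher than in VSMCs and 5 lower, and 2 of 17 were higher than in fibroblasts and 10 lower. Prrx1, a mesenchymal homeobox gene, had 411 and 368 CPM in fibroblasts, 112 and 114 CPM in VSMCs and 7.16 and 9.53 CPM in VECs. Nr2f2, which specifies venous and lymphatic endothelium, had 8.35 and 13.2 CPM in the Cytl1/Gja5 cluster, 396 and 295 CPM in the Fabp4/Gpihbp1 cluster and 660 and 705 CPM in LECs. Gata6 ran the other way, with 411 and 384 CPM, 85.4 and 20.8 CPM, and 121 and 48.0 CPM. Between AngII+HS and Control, 5 of 18 were higher and 2 lower in VSMCs, 4 of 20 higher and 2 lower in fibroblasts, and 2 of 12 higher and 1 lower in VECs.

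Of 13 noncoding RNAs of the HOX clusters looked for, 11 were in the matrices and 7 could be compared between cell types. Halr1, which lies in HOXA, was called higher in VECs than in VSMCs, with 8.54 and 9.86 CPM against 0.0946 and 0 CPM, and Hoxd3os1 was lower in fibroblasts than in VSMCs. Against fibroblasts, Halr1 and Hoxd3os1 were higher in VECs. Hoxd3os1 had 7.49 and 4.58 CPM in VSMCs, 0.330 and 1.77 CPM in fibroblasts and 13.4 and 12.4 CPM in VECs. It overlaps exons of Hoxd3, Hoxd4 and Hoxd8 on the opposite strand. Between AngII+HS and Control, Hoxa11os was higher and Hoxaas2 lower in VSMCs, Halr1 and Hoxd3os1 were higher in fibroblasts, and 0 of 7 passed 2-fold in VECs. Hotair, transcribed within HOXC and named after its values were seen, had 8 UMIs in Control and 1 in AngII+HS VSMCs and 0 in VECs of both libraries. The 3 Cdx genes, caudal factors that act on HOX clusters in the embryo, had too few UMIs for any comparison.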

How the data were processed

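The deposited files hold UMI counts per gene and cell barcode for each library, made by the authors with Cell Ranger (methods, GRCm39; the matrix header names version 8.0.1 and the labels mm10). The limits of the study's methods, at least 500 UMIs, 200 genes and under 20% mitochondrial UMIs, were applied to the deposited matrices here. Doublets were removed by Scrublet score in scanpy 1.11.5 at 0.8% per 1000 cells (9.03% of Control and 19.6% of AngII+HS cells). Seurat 5.3.0 in R 4.3.3 integrated the libraries with anchors on 2000 genes, of which 0 were HOX genes, and clustered at resolution 0.8 on 30 components. Clusters were named by fixed markers. Clusters left unnamed held 1076 Control and 773 AngII+HS cells, which entered no comparison.

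Counts were summed per type and library. The total was 86618995 UMIs in Control and 117146856 in AngII+HS. Intervals were exact Poisson or binomial ones (scipy 1.17.1), at 95%, and a count of 0 was given the limit of 3 counts. TMM factors came from edgeR 4.0.16, used for scaling only. The calculation of intervals and calls was tested on simulated data. Positions came from GENCODE vM39 and promoters from RefSeq.

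The members, lists, comparisons and markers were chosen with earlier results of these data known. Values are given in full for members with at least 50 UMIs in each library in VSMCs, fibroblasts or VECs, at most 8 a comparison by the mean log2 ratio, and for called members where 5 or fewer were called. Of the other lists, the 10 genes with the highest CPM in a named cell type were considered. Values of some genes are not reported here. Comparisons of LECs, pericytes, neural cells and single clusters were added after the data were seen. Alternatives were other doublet removal, a stricter filter, no integration, other resolutions, other scalings, subtraction of free RNA, other minimum counts and a 1.5-fold line.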

Additional observations from a re-analysis of the deposited data

Results flagged for a closer look

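For 5 HOX genes the log2 ratio of AngII+HS over Control had opposite signs between cell types, with each interval on its own side of 0. Members tested were 30 in VSMCs, 27 in fibroblasts and 22 in VECs. No share of all genes passing this rule is given, so the count is not a result about HOX genes. There is 1 library per condition, and the difference between cell types was not tested. Hoxa9 had 0.35 in VSMCs and -0.85 in VECs. Hoxa10 had 0.39 in VSMCs, -0.39 in fibroblasts and -1.09 in VECs. Hoxb8 had 0.77 in fibroblasts and -0.85 in VSMCs. Hoxb9 had 0.69 in fibroblasts, -1.21 in VSMCs and -0.57 in VECs. Hoxc6 had 0.42 in fibroblasts and -0.35 in VSMCs. Within the Cytl1/Gja5 cluster of VECs alone, Hoxa9 had -0.09 (-0.50 to 0.31) and Hoxa10 -0.26 (-0.72 to 0.20). Within the Fabp4/Gpihbp1 cluster, Hoxa9 had -1.50 (-2.32 to -0.68) from 30 and 25 UMIs. Hoxa10 had -2.16 (-3.43 to -0.98) there, from 19 and 10 UMIs. Single fibroblast clusters differed in the sign of Hoxa10. It had -1.28 (-1.94 to -0.57) in the Comp/Sfrp1 cluster, 0.41 (0.005 to 0.83) in the Dio2/Hhip cluster and 0.25 (-0.30 to 0.81) in the Scara5/Clec3b cluster. Among the VSMC clusters, Hoxa9 had 0.51 (0.25 to 0.76) in the Mylk4/Npnt cluster and -0.41 (-1.125 to 0.23) in the Col19a1/Des cluster.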

How the results depend on the processing

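No paired analysis was possible because each condition has 1 library, and for the same reason no library could be left out. Allowing HOX genes among the clustering genes was not run, since 0 of the 2000 genes were HOX genes and the clustering would be the same. Detection was not recomputed with free RNA subtracted, since the rule already uses it. The correlation of the libraries stayed between 0.969 and 0.984 in fibroblasts and VECs under the alternatives tried. VSMCs without integration, with 1375 Control cells, had an r of 0.797, 412.5 CPM in Control, 10 members detected, 1 higher and 0 lower in fibroblasts, 5 higher in VECs and 9 higher in AngII+HS.

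Summed HOX levels moved by more than their counting interval as follows. With no doublets removed they were 332.6 CPM in AngII+HS fibroblasts and 602.5 and 440.3 CPM in Control and AngII+HS VECs, and with double removal 391.2 CPM in AngII+HS VSMCs and 383.9 CPM in AngII+HS fibroblasts. Control fibroblasts had 371.2 CPM at resolution 0.4 and 372.6 CPM at resolution 1.2, where VSMCs had 431.9 and 348.7 CPM. Without mitochondrial UMIs Control VSMCs had 475.8 CPM. With TMM factors VSMCs had 538.9 and 452.8 CPM, fibroblasts 382.4 and 430.6 CPM and AngII+HS VECs 440.9 CPM. With equal weight per cell AngII+HS fibroblasts had 376.4 CPM and AngII+HS VECs 494.2 CPM. With free RNA subtracted VSMCs had 431.5 and 344.9 CPM, fibroblasts 334.8 and 330.6 CPM and VECs 612 and 448.3 CPM.

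Counts of members past 2-fold between AngII+HS and Control were small and changed under several alternatives. The shares of all genes under these alternatives are not given. In VSMCs 1 was higher, and this became 2 with no doublets removed, at a minimum of 10 UMIs and at 1.5-fold, and 0 at resolution 1.2, with equal weight per cell, with free RNA subtracted and at a minimum of 50 UMIs. In fibroblasts 0 and 0 became 1 higher with no doublets removed, 1 and 1 with double removal, 2 higher with equal weight, 1 higher and 2 lower with free RNA subtracted, and 6 and 3 at 1.5-fold. In VECs 0 higher became 1 with no doublets removed, and 4 lower became 1 with double removal, 2 with free RNA subtracted or at a minimum of 50 UMIs, and 10 at 1.5-fold. The cause of these shifts was not tested.

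Single clusters in place of a type were tried after the data were seen. Their counts between cell types have no share of all genes beside them. The Col19a1/Des cluster as VSMCs gave 3 members lower in VECs, with Hoxc5, Hoxc8 and Hoxc9 under the minimum count in AngII+HS. Between AngII+HS and Control it gave 0 higher and 2 lower. Fibroblasts between AngII+HS and Control gave 3 higher and 1 lower in the Comp/Sfrp1 cluster, 2 and 1 in the Dio2/Hhip cluster, and 3 and 1 in the Scara5/Clec3b cluster. Against VSMCs the Dio2/Hhip cluster gave 1 lower and the Scara5/Clec3b cluster 1 higher. The Fabp4/Gpihbp1 cluster as VECs gave 3 higher than VSMCs, 6 higher than fibroblasts and 1 higher in AngII+HS, and the Cytl1/Gja5 cluster 1 lower in AngII+HS.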

Other observations

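A small cluster that no marker set named, with 5 Control and 44 AngII+HS cells and led by Cntnap2, Npy and Syt1, genes of neurons, had its own HOX profile. In AngII+HS cells Hoxc8 had 127 CPM from 81 UMIs, Hoxc9 54.8 CPM, Hoxc6 47.0 CPM and Hoxc4 42.3 CPM, while Hoxd8 had 10.97 CPM from 7 UMIs. The Control cells are too few for a level, with 3 UMIs of Hoxc8 and 7 of Hoxc4. Hand2 and Isl1, factors of sympathetic neurons chosen after their values were seen, had 581 and 254 CPM in the AngII+HS cells. VSMCs had 2.37 and 5.93 CPM of Hand2 in Control and AngII+HS. They were not the highest of the wall cells. Both genes were called higher in fibroblasts than in VSMCs, and Isl1 also in VECs.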
